A study of Mus musculus with 7 samples.

Results

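The Hox genes of the 4 mammalian clusters were followed across 7 Affymetrix arrays of mouse embryonic fibroblasts. Members were found by name, as every probe set annotated to a single symbol Hoxa, Hoxb, Hoxc or Hoxd with a number from 1 to 13. This gave 37 probe sets of 31 genes, out of 12394 genes named on the array, and 5 of the genes had several probe sets. A further 3 probe sets were each shared by a pair of Hox genes (Hoxb7 with Hoxb8, and Hoxd3 with Hoxd4) and are given apart, while Hoxa6, Hoxc10, Hoxc11 and Hoxc12 had no probe set named to them and were not analysed here. The values are MAS5 signals, a brightness per probe set that compares arrays but not one probe set with another.

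All cells were null for p53, the tumour suppressor, so p53 loss is shared by every group. For the p53-null cells (p53-/-) there was an array without treatment and one each at 24 h and 48 h of exposure to TSA, trichostatin A, which inhibits histone deacetylases. Cells that also lacked Dnmt1, the enzyme that copies DNA methylation onto new strands (p53-/- Dnmt1-/-, here p53-Dnmt1-null), were profiled at those same points and once more 2 weeks after TSA had been removed. Each group was 1 array. The labels give no dose, no age of embryo and no body region, and they name no separate cultures or clones, so genotype and culture cannot be told apart.

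Hox genes encode homeodomain transcription factors that give cells of the embryo their place along the head-to-tail axis and along the limbs. They lie in 4 clusters, HoxA to HoxD, in which low paralogue numbers are used towards the head and high numbers towards the tail, the digits and the urogenital tract. Fibroblasts keep a Hox pattern that reflects the body region they came from, and Polycomb repressors and Trithorax activators hold that pattern through cell division.

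Most posterior Hox genes had signal in the p53-null cells and little in the p53-Dnmt1-null cells. Hoxd13, Hoxd10 and Hoxc8 had the lowest differences, at -3.83, -3.80 and -3.19 on the log2 scale (p53-Dnmt1-null minus p53-null). Of the 14 probe sets of paralogues 9 to 13, 11 were lower in p53-Dnmt1-null cells, where 10.2% of all probe sets were, 1 was higher, where 9.44% were, and 2 were not called. Those 11 were called by a fit over untreated and TSA arrays together, so being lower with TSA is no separate result. Up to 48 h their p53-Dnmt1-null arrays all read below the 3 p53-null arrays, as for 16.3% of all probe sets. They also read below untreated p53-null cells 2 weeks after TSA removal.

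The array as a whole sets the scale for these values. The median signal lay between 41.9, on the after-removal array, and 48.8, and Dnmt1 itself was lower in p53-Dnmt1-null cells, by -1.77 ± 0.19 (SE). The labelled cell type was checked on marker lists, with 1 probe set per gene, where 10.2% of all probe sets were lower and 9.44% higher. Of 14 fibroblast markers 10 were lower and 1 was higher in p53-Dnmt1-null cells, and their summed signal was 30838.8 to 38436.7 on the p53-null arrays against 9391.4 to 16851.6 on the 4 p53-Dnmt1-null arrays. Of 14 epithelial markers 6 were higher, with sums of 195.2 to 470.9 against 7997.0 to 13802.5, while Epcam, Cldn4, Cldn7, Ocln, Ehf, Esrp1, Muc1 and Krt5 were not called. All 5 mesothelial markers on the array were higher (28.4 to 45.4 against 5530.7 to 11637.8), as were 2 of 6 macrophage markers (96.8 to 142.0 against 188.5 to 408.9). Limma called 0 of 6 endothelial markers and 0 of 5 pluripotency markers (34.1 to 49.1 against 40.5 to 68.7), and of 6 neural markers 2 were lower (531.7 to 1753.7 against 354.4 to 679.1). These markers move with genotype beside every Hox result below, and their part in it was not tested. In bulk RNA, fewer cells of a type and less RNA per cell cannot be told apart.

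Because the question of the series is how DNA methylation keeps genes silent, the bases just upstream of the starts of 3 HoxD genes that were lower are shown, with every CpG, the dinucleotide that Dnmt1 keeps methylated, in capitals. They are the 250 bases before the start in RefSeq's GRCm38.p6 table, on the plus strand, at chr2:74667975-74668224 for Hoxd13, chr2:74691641-74691890 for Hoxd10 and chr2:74704365-74704614 for Hoxd8. Methylation was not measured in this series.
Hoxd13: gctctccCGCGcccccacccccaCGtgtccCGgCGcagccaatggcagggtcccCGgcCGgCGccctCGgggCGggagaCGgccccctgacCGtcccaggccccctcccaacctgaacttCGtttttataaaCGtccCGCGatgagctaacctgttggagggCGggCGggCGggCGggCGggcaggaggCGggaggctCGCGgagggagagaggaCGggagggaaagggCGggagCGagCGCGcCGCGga
Hoxd10: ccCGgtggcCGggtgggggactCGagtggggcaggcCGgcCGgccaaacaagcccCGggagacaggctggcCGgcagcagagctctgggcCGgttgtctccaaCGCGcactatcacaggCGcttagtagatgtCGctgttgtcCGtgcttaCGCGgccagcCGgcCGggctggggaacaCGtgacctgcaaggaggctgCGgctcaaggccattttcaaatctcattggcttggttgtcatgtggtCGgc
Hoxd8: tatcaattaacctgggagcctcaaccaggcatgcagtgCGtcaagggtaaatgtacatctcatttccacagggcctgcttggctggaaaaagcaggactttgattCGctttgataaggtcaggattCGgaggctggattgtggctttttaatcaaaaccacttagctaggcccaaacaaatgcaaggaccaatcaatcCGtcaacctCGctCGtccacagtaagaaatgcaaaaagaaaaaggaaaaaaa
Within these 250 bases Hoxd13 has 31 CpG, Hoxd10 has 20 and Hoxd8 has 6, so genes that were lower together in p53-Dnmt1-null cells differ widely in CpG density. The table held 24 windows for 22 of the listed Hox genes, each 300 bases long and reaching 50 bases past the start. Their median was 14.5 CpG, against 7 over all 32851 windows. Among 12 windows of genes that were lower the median was 17.5 and the range 4 to 45, and among 8 windows of measured genes that were not lower it was 12 with a range of 9 to 29. These ranges overlap, and no test was made. The letters TATAAA, in either strand, were in 2 of the 12 windows of lower genes against 13.6% of all windows. AGGTCA, a motif bound by retinoic acid receptors, was in 2 of 12 against 16.3%, and TTTATG, the core of the CDX site, was in 1 of 12 against 11.9%. In the 8 windows of measured genes that were not lower, TATAAA was in 0, AGGTCA in 3 and TTTATG in 1. Over all 24 Hox windows the counts were 4, 7 and 5. A match of letters is a description and no evidence of binding.

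**Figure D1:**
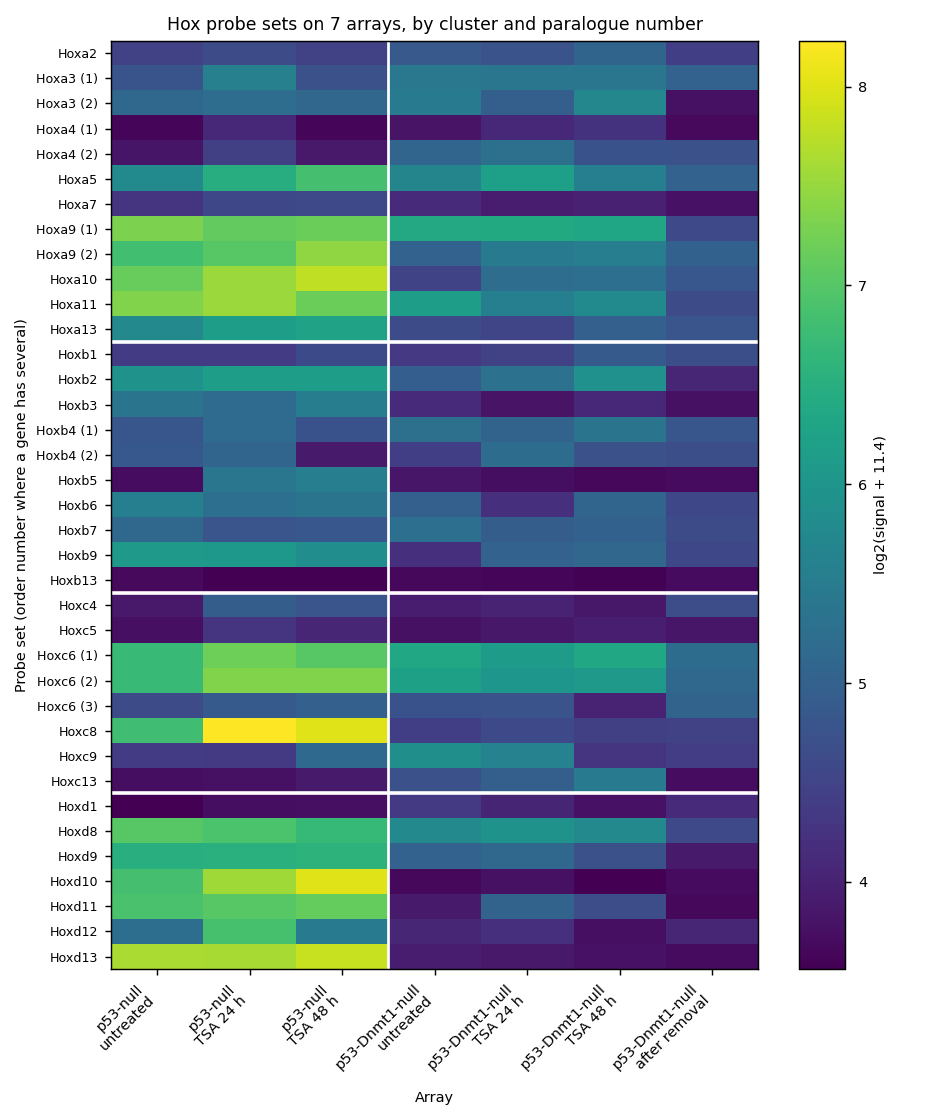
Level of all 37 Hox probe sets (rows, ordered by cluster and paralogue number, white lines between clusters) on the 7 arrays (columns), as log2(signal + 11.4). Of the 14 rows above the median signal of 45.6 in all 3 p53-null columns, 8 are below it in all 4 p53-Dnmt1-null columns, among them Hoxd9, Hoxd10, Hoxd11 and Hoxd13. The matching share of all probe sets was not counted.

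Silent genes need a rule for what counts as signal. The median of all signals over the 7 arrays, 45.6, was used as the line, and 18 probe sets of 16 Hox genes exceeded it on at least 1 array. Of these 18, 10 did so only on p53-null arrays, 1 only on a p53-Dnmt1-null array, and 7 on arrays of both genotypes. On all 3 p53-null arrays 14 Hox probe sets exceeded the line, and 8 of them did so on none of the 4 p53-Dnmt1-null arrays. No Hox probe set exceeded it on all 4 p53-Dnmt1-null arrays. How all probe sets split in these ways was not counted, so these counts are not read as particular to Hox genes. The other 19 probe sets stayed between 0.4 and 41.6 everywhere.

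To account for every member without that line, the genotypes were compared over all 22626 probe sets other than controls, at 0, 24 and 48 h. Limma, adjusted by Benjamini-Hochberg at 0.05, called 15 of the 37 Hox probe sets lower in p53-Dnmt1-null cells, where 10.2% of all probe sets were called lower, and 2 higher, where 9.44% were. The median difference was -0.64 over the 37 and 0.06 over all probe sets. At least 2-fold lower at all 3 times were 11 of 37, against 3.86% of all. The 3 arrays of each genotype did not overlap for 19 Hox probe sets on the lower side, against 16.3% of all, and for 4 on the higher side, against 19.1%. After the line was applied 16 of 18 were lower, against 19.3% of the 14012 tested, but a gene that crosses the line only in p53-null cells has to differ, so this count is not read further. Differences, standard errors and adjusted p-values of single genes between genotypes are therefore taken from the fit of all 22626; tests that leave out a pair of arrays, and those of TSA, were run on the 14012.

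Lower calls were most frequent, by count, at the posterior end. Among paralogues 1 to 3 they were 1 of 7 probe sets, with a median difference of 0.25. Among paralogues 4 to 8 they were 3 of 16, with 1 higher and a median of -0.52. Among paralogues 9 to 13 they were 11 of 14, with a median of -1.54 and a range of -3.83 to 1.26. By cluster, 6 of 7 HoxD probe sets were lower, 5 of 12 in HoxA, 2 of 10 in HoxB and 2 of 8 in HoxC, with medians of -1.86, -0.52, -0.31 and -0.48. By block, counts of probe sets above the line in p53-null cells followed the same order. MAS5 signal does not compare one probe set with another, so how far this order reflects RNA levels was not tested. Above 45.6 on all 3 p53-null arrays were 1 of 7 probe sets of paralogues 1 to 3, 4 of 16 of 4 to 8, and 9 of 14 of 9 to 13. A probe set near the floor in p53-null cells has little room to be lower, so the order of the calls and that of signal cannot be told apart. Blocks and clusters were compared by these counts alone, with no test between them.

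**Figure D2:**
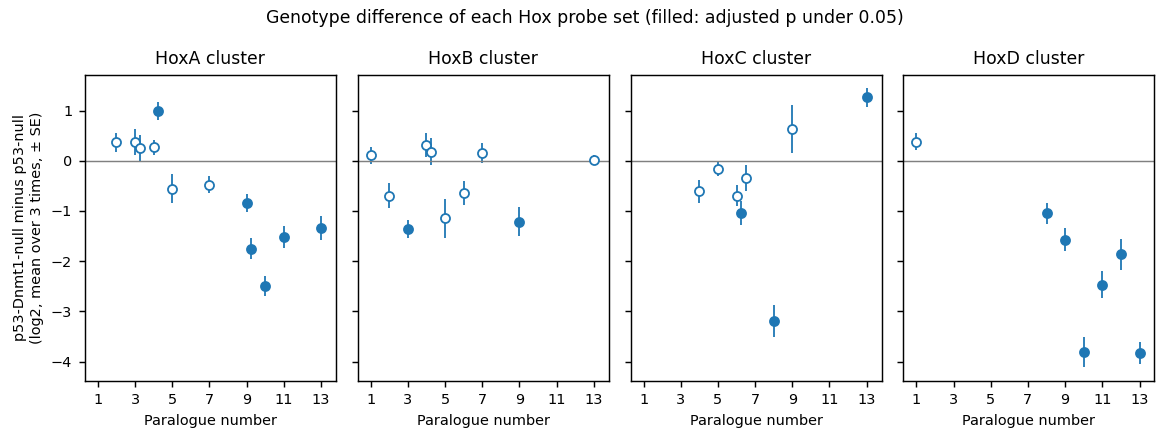
Difference between genotypes (y axis, log2, mean over 3 times with its standard error from limma over all 22626 probe sets) against paralogue number (x axis) for each Hox probe set of the 4 clusters; filled points passed an adjusted p of 0.05, and probe sets of 1 gene are set side by side. HoxD runs from 0.38 at Hoxd1 to -3.83 at Hoxd13, with Hoxd12 at -1.86 above its neighbours, while in HoxC the point at 13 is the highest of the plot, at 1.26.

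In the HoxD cluster every measured gene from Hoxd8 to Hoxd13 was lower. Hoxd13, which shapes the digits and the genital tubercle, read 187.7 untreated, 185.9 at 24 h and 217.4 at 48 h in p53-null cells. In p53-Dnmt1-null cells it read 3.9, 3.4 and 2.4, and 1.5 after removal; values of other genes follow this order. The genotypes were far apart on every array, by -3.83 ± 0.22 (SE, limma adjusted p = 0.000436).

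Hoxd10, used in the limb and the lumbar spinal cord, had 103.6, 177.0 and 246.5 in p53-null cells against 1.3, 2.2 and 0.5, and 1.5 after removal. Its difference was -3.80 ± 0.30 (adjusted p = 0.00101). All 4 p53-Dnmt1-null arrays were near the floor of the scale for both genes, so the size depends on the offset added before taking logarithms. With an offset of 1 the differences were -5.56 for Hoxd13 and -6.22 for Hoxd10, and with an offset of 45.6 they were -2.31 and -2.18.

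Hoxd11, which patterns the forearm and the kidney together with Hoxa11, had 107.5, 118.5 and 128.9 against 3.6, 21.8 and 14.0, and 1.2 after removal. The lowest p53-null array was well above the highest p53-Dnmt1-null array, and the difference was -2.47 ± 0.27 (adjusted p = 0.00271). Hoxd12 had 26.8, 105.6 and 33.2 against 5.3, 7.2 and 2.1, with 5.3 after removal. It crossed the line of 45.6 on the 24 h p53-null array alone, and the difference was -1.86 ± 0.31 (adjusted p = 0.0114).

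Hoxd9 was nearly level over time in p53-null cells, at 78.9, 80.2 and 84.6. Without Dnmt1 it read 21.3, 24.0 and 14.9, and 3.5 after removal. The groups did not overlap, and the difference was -1.57 ± 0.23 (adjusted p = 0.00686). Hoxd8, the most anterior HoxD gene above the line, had 118.2, 109.2 and 92.1 against 42.5, 50.6 and 43.1, and 12.6 after removal. Its difference was the smallest of the 6, at -1.05 ± 0.20 (adjusted p = 0.0171). At the anterior end Hoxd1 stayed between 0.4 and 9.0 on all arrays, and the 2 probe sets shared by Hoxd3 and Hoxd4 read at most 14.7 and 13.6. The first of these was higher in p53-Dnmt1-null cells, by 0.73 (adjusted p = 0.0231), at signals of 14.7, 8.3 and 10.7 against 1.6, 2.3 and 2.5.

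The posterior HoxA genes were lower too. Hoxa10, needed for the uterus and the lumbar spine, had 129.4, 173.6 and 210.2 in p53-null cells against 11.5, 25.9 and 27.1, and 17.1 after removal. The difference was -2.49 ± 0.20 (adjusted p = 0.00119), the lowest of the HoxA cluster. Hoxa11 had 151.5, 173.2 and 133.8 against 60.7, 36.4 and 44.0, with 13.7 after removal, a difference of -1.51 ± 0.22 (adjusted p = 0.00754). The untreated p53-Dnmt1-null array still exceeded the line for Hoxa11. Its antisense transcript Hoxa11os, which is not a member, had 131.6, 130.5 and 119.2 against 9.7, 14.9 and 7.8, and 3.3 after removal, a difference of -2.65 ± 0.22 (adjusted p = 0.00121).

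Hoxa13, like Hoxd13 a gene of the digits and the urogenital tract, had 43.1, 60.1 and 64.7 against 13.6, 11.8 and 20.4, with 16.4 after removal. The groups did not overlap, and the difference was -1.34 ± 0.23 (adjusted p = 0.0116). Hoxa9, a regulator of blood progenitors and of the axial skeleton, had 2 probe sets that gave the same direction and different sizes. The one numbered 2 in the plots had 101.8, 117.7 and 164.9 against 21.2, 33.1 and 35.7, a difference of -1.75 ± 0.21 (adjusted p = 0.00358). The one numbered 1 had 147.2, 127.4 and 133.0 against 72.0, 73.4 and 67.5, a difference of -0.84 ± 0.18 (adjusted p = 0.0238). Probe set 1 stayed above the line in p53-Dnmt1-null cells until the after-removal array, where it read 12.6, and without the 48 h pair of arrays its call was lost (-0.82, adjusted p = 0.0599).

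Hoxa5, used in the lung and the neck, was the HoxA gene with signal that was not called. It had 44.3, 77.6 and 104.9 in p53-null cells against 39.9, 62.0 and 36.2, with 21.2 after removal. The groups overlapped, and the difference of -0.56 ± 0.29 had an adjusted p of 0.233. Hoxa2, Hoxa3, Hoxa4 and Hoxa7 were dim throughout. One probe set of Hoxa4 was called higher, at 22.4, 27.7 and 15.3 against 2.7, 10.3 and 3.3 (0.99 ± 0.18, adjusted p = 0.0152), and its other probe set was not (0.27 ± 0.15).

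In HoxC the outcome depended on the gene. Hoxc8, which sets thoracic vertebrae and forelimb motor neurons, had 99.5, 289.1 and 245.3 in p53-null cells against 10.0, 12.8 and 10.4, and 10.8 after removal. The difference of -3.19 ± 0.31 (adjusted p = 0.00193) was the lowest of its cluster. Hoxc6, its neighbour, was 94.1, 151.5 and 150.8 against 62.9, 53.6 and 55.4 by the probe set numbered 2, with 23.6 after removal (-1.04 ± 0.24, adjusted p = 0.0296). Probe set 1 gave 94.8, 135.6 and 118.5 against 69.6, 58.8 and 71.1, with 25.7 after removal (-0.70 ± 0.21), which was not called over all probe sets (adjusted p = 0.0684) and was among the 14012 (adjusted p = 0.025). The third probe set stayed at or below 21.8. Among the 14012 both calls were lost without the 48 h pair (adjusted p = 0.0565 for probe set 2 and 0.112 for probe set 1), and that of probe set 1 also without the 24 h pair (adjusted p = 0.112). Hoxc6 stayed above the line in p53-Dnmt1-null cells up to 48 h, and Hoxc8 did not.

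Hoxc9, a gene of thoracic identity next to Hoxc8, was the only Hox gene that crossed the line through p53-Dnmt1-null cells alone. It had 48.1 and 38.4 there at 0 and 24 h, 8.0 at 48 h and 9.9 after removal, against 9.2, 9.0 and 24.4 in p53-null cells. The genotypes changed order at 48 h, and the difference of 0.64 ± 0.48 was not called (adjusted p = 0.399). Among the probe sets that crossed the line, its adjusted p was 0.312 with all pairs of arrays. Without the 48 h pair it was called higher there, at 1.41 (adjusted p = 0.0319). Hoxc9 crossed the line only on its untreated p53-Dnmt1-null array, which was kept. The pair left out was the one that went the other way, at -0.88. Both favour a higher call, so this call is not read further. Hoxc13, a gene of hair and nails at the posterior end, went against the posterior trend: its signals of 15.1, 20.2 and 32.7 were above 1.9, 2.3 and 3.5 at each time (1.26 ± 0.18, adjusted p = 0.00708), and it read 1.7 after removal. All of its values lie under the line. Hoxc4 and Hoxc5 stayed at or below 19.4 and 7.7.

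Of the 10 HoxB probe sets 2 exceeded the line. Hoxb2, a hindbrain gene, had 50.6, 60.3 and 61.4 in p53-null cells against 19.7, 28.4 and 49.3, with 5.4 after removal. The difference of -0.70 ± 0.25 was not called over all probe sets (adjusted p = 0.102). Among the 14012 it was (adjusted p = 0.0481), and it was called under 1 of 10 alternatives to that fit. Hoxb9, which acts on the ribs, had 55.8, 54.8 and 46.3 against 7.0, 21.2 and 23.1, with 12.5 after removal (-1.21 ± 0.29, adjusted p = 0.0331).

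The probe set shared by Hoxb7 and Hoxb8 had 50.3, 66.5 and 32.5 against 16.9, 23.3 and 23.4, with 14.1 after removal. Its difference of -0.88 was not called over all probe sets (adjusted p = 0.0665) and was among the 14012 (adjusted p = 0.0328), which it entered through p53-null arrays alone. Hoxb3 was the dim gene called lower, at 29.8, 25.2 and 34.3 against 6.0, 2.6 and 5.5 (-1.36 ± 0.18, adjusted p = 0.00525). Hoxb13, the most posterior HoxB gene, read at most 1.5 on any array. Hoxb1, Hoxb4, Hoxb5, Hoxb6 and Hoxb7 were dim.

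**Figure D3:**
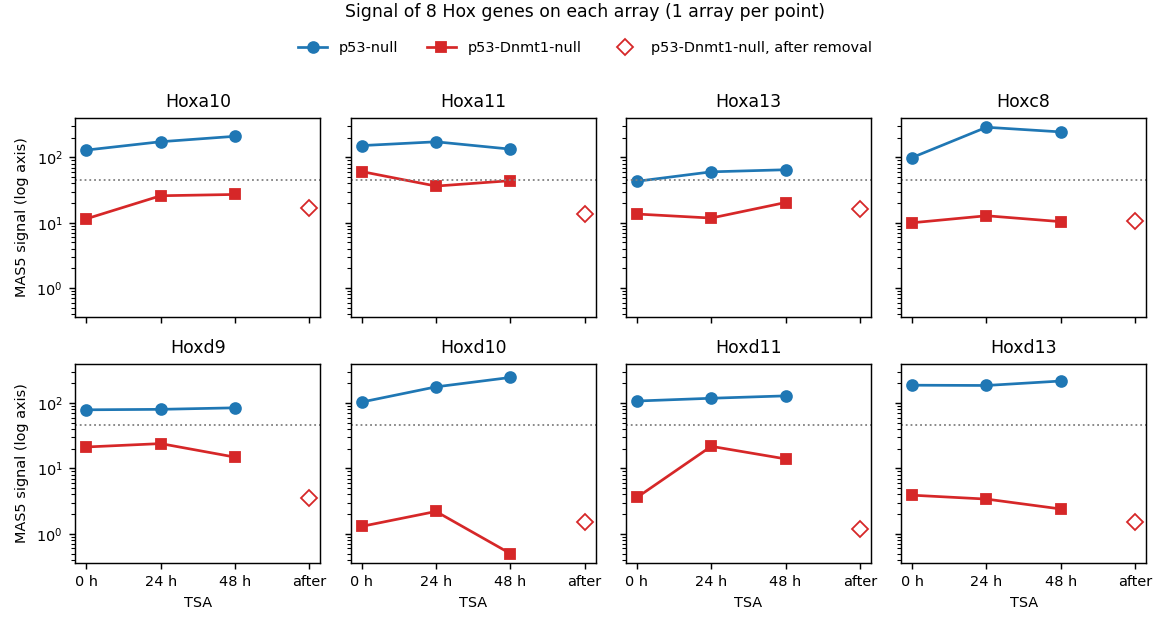
MAS5 signal (log axis) of 8 Hox genes at 0, 24 and 48 h of TSA in p53-null (blue circles) and p53-Dnmt1-null cells (red squares), and after TSA removal (open diamonds), 1 array per point; the dotted line is the median of all signals, 45.6. The blue points lie above the red ones for all 8 genes at each time, with Hoxd13 at 185.9 to 217.4 against 2.4 to 3.9.

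The TSA arrays address whether blocking histone deacetylases changes Hox levels in either genotype. Within a genotype, both TSA times and the after-removal array are set against the same untreated array. In p53-null cells Hoxc8 went from 99.5 to 289.1 and 245.3, log2 differences of 1.44 at 24 h and 1.21 at 48 h. It was the single Hox probe set of 18 at least 2-fold higher at both times, where 1.51% of the 14012 tested were, and 0 were lower, where 1.03% were. Hoxd10 went from 103.6 to 177.0 and 246.5 (0.71 and 1.17) and Hoxa5 from 44.3 to 77.6 and 104.9 (0.68 and 1.06). Hoxd12 stood out at 24 h alone, at 105.6 between 26.8 and 33.2. Hoxd13, Hoxd9 and Hoxa11 differed from untreated by at most 0.20 at either time.

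Of the 18 probe sets 12 were above untreated at both times, as were 39.6% of all, and the median of the 18 over both times was 0.39 against 0.03. Among the 12 are Hoxa5, Hoxa13 and Hoxd12, which read 44.3, 43.1 and 26.8 untreated and crossed the line only on TSA arrays. The filter favours a rise for such probe sets, here and among all. Limma called 0 of 18 and 0 of 14012 (0%) for TSA in p53-null cells. At an unadjusted p of 0.05, 2 of the 18 and 1206 of all passed, and Hoxc8 had the lowest Hox p, 0.00352 for 1.32 ± 0.33 (adjusted p = 0.361). Among dim genes Hoxb5, picked after its values were seen, read 1.8 untreated and 30.8 and 35.5 with TSA, and 1.2 to 3.0 at the same points in p53-Dnmt1-null cells.

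In p53-Dnmt1-null cells no Hox probe set of the 18 was at least 2-fold higher at both times, where 1.71% of all were, or lower, where 0.378% were. Hoxd11 went from 3.6 to 21.8 and 14.0 (1.15 and 0.76), Hoxa10 from 11.5 to 25.9 and 27.1 (0.70 and 0.75) and Hoxb9 from 7.0 to 21.2 and 23.1 (0.83 and 0.91). Each of these TSA values stayed below the lowest p53-null array of the same gene. Hoxd13, Hoxd10 and Hoxc8, the genes with the lowest genotype differences, read 3.4 and 2.4, 2.2 and 0.5, and 12.8 and 10.4 with TSA.

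The median over the 18 was 0.05, against -0.03 for all, with 10 above 0 and 8 below. Limma called 0 of 18 and 0 of 14012 (0%), with 2 and 1136 at an unadjusted p of 0.05. For the difference in TSA response between the genotypes limma also called 0 of 18 and 0 of all (0%), with 1 and 480 at an unadjusted p of 0.05. Hoxc8, at 1.32 ± 0.33 with p53 loss alone and 0.10 without Dnmt1, had a difference in response of -1.22 (adjusted p = 0.995). With both genotypes averaged limma called 0 of 18 and 2 of 14012 (0.0143%), with 2 and 2054 at an unadjusted p of 0.05 and a lowest Hox adjusted p of 0.225. A miss at these thresholds does not show that the responses were alike, since each TSA fit has 2 or 3 residual degrees of freedom.

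Several Hox probe sets read lower 2 weeks after TSA removal than on the untreated p53-Dnmt1-null array. The series has no untreated array at that later time, so time in culture and the removal of TSA cannot be told apart. Of the 18 probe sets 7 were at least 2-fold below the untreated p53-Dnmt1-null array, where 8.46% of the 14012 were, and 0 were above, where 6.74% were. The 7 belonged to Hoxa9, Hoxa11, Hoxc6 with 2 of its probe sets, Hoxc9, Hoxd8 and Hoxd9. Hoxc9 crossed the line only on that untreated array, at 48.1, so the filter favours its fall. It already read 8.0 at 48 h of TSA, against 9.9 after removal. Hoxa9 went from 72.0 to 12.6 by probe set 1 (-1.80), Hoxa11 from 60.7 to 13.7 (-1.52), Hoxd8 from 42.5 to 12.6 (-1.17) and Hoxd9 from 21.3 to 3.5 (-1.13). The other probe set of Hoxa9 read 21.2 and 20.7, a difference of -0.02, so the probe sets of this gene disagree here.

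The after-removal array was the lowest of the 4 p53-Dnmt1-null arrays for 11 of the 18, and for 40.2% of all tested, and was the highest for 0. The median difference from untreated was -0.45 over the 18 and -0.06 over all. Among genes above the line, fibroblast markers had a median of -0.42 on the same array, and the other homeobox genes one of -0.35. Other transcription factors that mark body position had -0.60, retinoic acid and Cdx genes -0.54 and mesothelial markers -0.45. Epithelial markers had -0.18 and Polycomb genes 0.11. A fall of this size was thus not particular to Hox genes, and the part of these lists in the Hox result was not tested. Limma, which here compares 1 array with 1 array on a spread taken from the TSA pairs, called 0 of 18 and 2 of 14012 (0.0143%), with 6 and 2630 at an unadjusted p of 0.05 and Hoxa9 at a lowest adjusted p of 0.0958. With quantile normalization 5 Hox probe sets were at least 2-fold lower, and with the offset at 45.6 only 1.

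**Figure D4:**
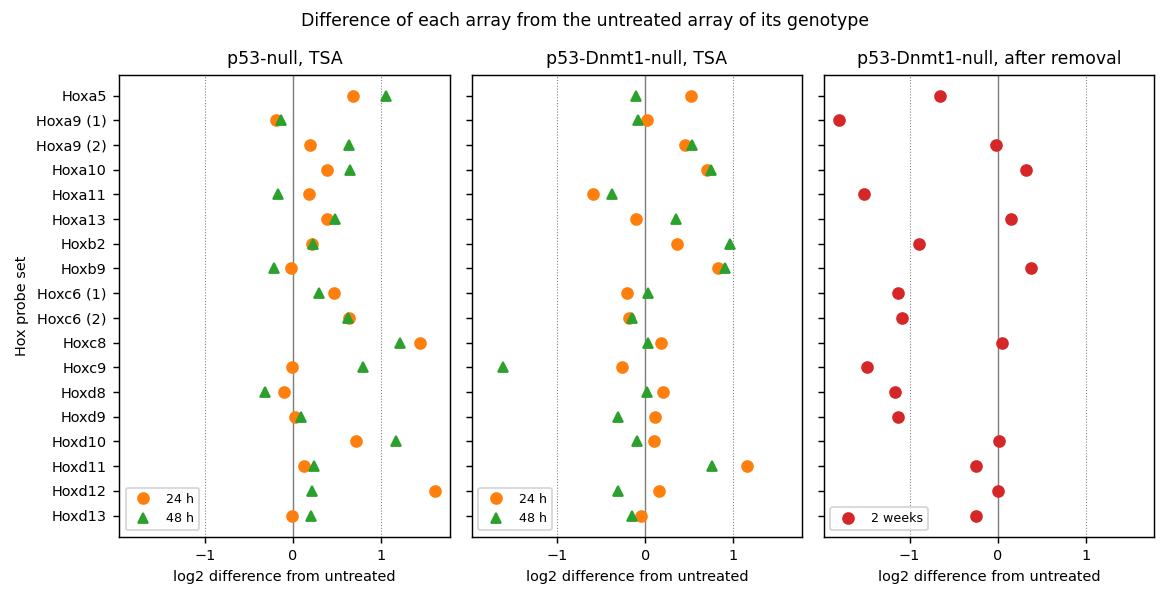
Log2 difference from the untreated array of the same genotype (x axis) for the 18 Hox probe sets above the line (rows), with TSA at 24 h (circles) and 48 h (triangles) in each genotype, and 2 weeks after removal (right); dotted lines mark 2-fold, and numbers in brackets tell probe sets of 1 gene apart. Hoxc8 lies past 2-fold at both times on the left, at 1.44 and 1.21, and 7 probe sets lie past 2-fold to the left after removal.

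Genes around and upstream of the clusters were read for the same genotype comparison, over all 22626 probe sets and with 1 probe set per gene. Of the 24 nearest protein-coding genes, 3 on each side of each cluster in RefSeq order, 2 were lower, 5 were higher and 17 were not called, with a median of 0.22. Of all probe sets 10.2% were lower and 9.44% higher, shares that also stand beside the gene lists below. Mtx2, the first past Hoxd1, was higher by 0.58 ± 0.14. Evx1 and Evx2, homeobox genes just past Hoxa13 and Hoxd13, were dim in both genotypes, at 3.9 to 13.7 and 14.9 to 36.8, and were not called. Of the 6 genes beside HoxD limma called none lower, which is near the share of all probe sets and is not read further. Mtx2 was higher. Not called were Atp5g3 at 0.31, Evx2 at 0.28, Atf2 at -0.25, Nfe2l2 at -0.41 and Ttc30b at -0.77 ± 0.24 (adjusted p = 0.0759).

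Hox proteins bind DNA with partners of the PBC and MEIS families. Of 8 such genes on the array 2 were lower and 1 was higher. Meis1 was higher, at 83.2, 78.2 and 133.3 against 2.9, 20.0 and 30.3 (2.01 ± 0.30), and Meis2 and Pbx3 were lower by -0.94 ± 0.24 and -1.07 ± 0.25. Meis1 and Meis2 are close relatives and had opposite signs.

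Polycomb genes were called no more often than all probe sets, of which 10.2% were lower and 9.44% higher, so their count is not read further. Of 22 Polycomb genes 2 were lower (Cbx6 by -0.90 ± 0.14 and Rbbp7 by -0.68 ± 0.11), 1 was higher (Pcgf6 by 0.97 ± 0.18) and 19 were not called, with a median of 0.13. Of 6 Trithorax genes and H3K27 demethylases 4 were higher, among them Ash2l by 1.19 ± 0.13, Dpy30 by 0.77 ± 0.16 and Wdr5 by 0.72 ± 0.13. Kdm6a, which removes the Polycomb mark, was lower by -2.23 ± 0.31, at 24.4, 9.4 and 23.3 against 83.5, 126.7 and 194.2.

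Retinoic acid, made by the Aldh1a enzymes, turns on Hox genes in order during development. Of 15 genes of this list 4 were higher and 4 lower. Aldh1a1 and Aldh1a2 were higher by 4.81 ± 0.44 and 4.61 ± 0.32, and Cyp26a1, which breaks retinoic acid down, by 1.76 ± 0.24. The binding proteins Crabp1 and Crabp2 were lower by -4.74 ± 0.40 and -3.39 ± 0.66, and the receptor Rxra by -1.06 ± 0.21.

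Among homeobox genes outside the clusters lower calls outnumbered higher ones. Of 73 on the array 23 were lower, where 10.2% of all probe sets were. Higher were 6, near the share of 9.44%, and 44 were not called, with a median of 0.02. With 1 probe set per gene, 13 of the 31 Hox genes were lower, 2 were higher and 16 were not called, with a median of -0.70. The limb and mesenchyme genes Prrx1 and Prrx2 were lower by -4.44 ± 0.39 and -4.14 ± 0.22 and Zfhx4 by -3.30 ± 0.34. Rhox5, Hhex and Dlx4 were higher by 4.22 ± 0.17, 2.05 ± 0.26 and 1.42 ± 0.22. Of 20 other transcription factors that mark body position 7 were lower and 4 were higher. Foxc2, Tbx15 and Foxd1 were lower by -2.86 ± 0.29, -2.70 ± 0.20 and -2.35 ± 0.23, and Wt1, Gata6 and Tcf21, factors of the body cavity lining and its organs, were higher by 5.40 ± 0.19, 3.60 ± 0.19 and 2.28 ± 0.24. Wt1 also stands on the mesothelial marker list.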

How the data were processed

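RNA was measured once for each of 7 groups. The deposited values are linear signal intensities of 22690 probe sets, made by the authors with MAS5 per the submitters' processing notes; the sources used here give neither the version nor a scaling target. Every array had a 2% trimmed mean of 150.1, so the arrays were on one scale as deposited. Detection calls were not used here. With 7 arrays, precision is limited by their number.

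Probe sets were named through the platform annotation (20393 with 1 symbol, 691 with several, 1606 not listed), and 20364 symbols were updated by Entrez identifier to RefSeq GRCm38.p6. Signals were analysed as log2(signal + 11.4), the pooled 25th percentile, which understates changes of dim genes. Without 64 controls, 14012 probe sets were above 45.6, the median of all signals, somewhere among the 7 arrays. Genotypes were compared by limma 3.58.1 (R 4.3.3, trended prior) in an additive model with time as a factor (6 arrays, 2 residual degrees of freedom, prior 6.67), and TSA and removal over 7 arrays with 24 h and 48 h pooled (6 arrays for the TSA average over genotypes); p-values thus rest on the spread among arrays, which may be technical. Because a gene can pass that filter through 1 genotype alone, genotype values of single genes come from the same model over all 22626 probe sets other than controls. The fit was tested on simulated data. Differences of single arrays were described by a 2-fold rule.

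All members with signal above 45.6 are named with values. From related lists the 3 highest and 3 lowest called genes could be named, and Epcam and other uncalled markers, Evx1, Evx2 and dim members were named to complete their lists. The members, lists and tests were chosen with earlier results of these data known. Alternatives were offsets of 45.6 and 1, no filter, a filter on 3 arrays, quantile normalization, 1 probe set per gene, no trend, and leaving out each time. Trp53 had no probe set of its own here.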

Additional observations from a re-analysis of the deposited data

Results flagged for a closer look

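For 3 of the 18 Hox probe sets above 45.6 on any array, both TSA arrays lay on opposite sides of untreated in the genotypes. Hoxb9 was at -0.02 and -0.22 with p53 loss alone and 0.83 and 0.91 without Dnmt1, a difference of 0.99. Hoxc6, by its probe set numbered 2, was at 0.63 and 0.62 against -0.19 and -0.15, a difference of -0.80. Hoxd8 was at -0.10 and -0.32 against 0.20 and 0.02, a difference of 0.32. In limma's test of the difference none of them passed (adjusted p = 0.995 for each).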

How the results depend on the processing

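The genotype count of 16 Hox probe sets, taken after the line of 45.6 was applied, was 13 to 17 under 10 alternatives. That line favours lower calls for probe sets that cross it only in p53-null cells, so this range is not read as stability. The 17 came with no filter and was 15 lower and 2 higher of 37 Hox probe sets. The settings with a stricter filter or 1 probe set per gene tested fewer Hox probe sets, so the counts are not of the same set. The count was 13 (12 lower, 1 higher) without the 48 h pair. There limma called 1323 of all probe sets higher and 1578 lower in place of 2464 and 2701. The 1 higher was Hoxc9, for which the filter and the pair left out both favour that call. Of 175 values of single probe sets under the alternatives, 160 stayed on their side of the threshold with their direction or were uncalled in both, 14 lost the call, 1 gained it and 0 reversed. The Hox probe sets at least 2-fold apart at all 3 times were 10, and 6 with the offset at 45.6. After TSA removal they were 7, and 1 with that offset. For TSA in p53-null cells they were 1, and 2 with no filter; in p53-Dnmt1-null cells 0, and 3 with an offset of 1. The other counts for TSA and removal by limma were 0 under each alternative run. The genotype fit paired the arrays by time; with 1 array per group there were no replicates to pair.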
